A study of Homo sapiens with 6 samples.

Results

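The 21q21 segment around *TMPRSS15* was examined in TC71 cells, an Ewing sarcoma line, by bulk RNA-seq after knockdown of *EHD1*. The 8 genes described are *USP25*, *CXADR*, *BTG3*, *C21orf91*, *CHODL*, *TMPRSS15*, *MIR548XHG* and *NCAM2*, taken by symbol from a count table of 60676 genes and ordered along the chromosome. They were chosen because counts of *TMPRSS15* and *MIR548XHG* were nearly lost in the shEHD1+Dox libraries, so their differences between the groups are given as a description, without p-values. The members span 5813348 bases (chr21:15729982-21543329, hg38). Of the 8 genes, 7 passed the filter on low counts (10 counts or more in 3 or more libraries), and *CHODL* did not.

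Both groups held 3 libraries of TC71 cells that carried a doxycycline-inducible lentiviral shRNA vector with a GFP reporter, were selected as polyclonal pools with puromycin, and received 0.5 µg/ml doxycycline (Dox) for 3 days. The control group expressed a non-targeting shRNA (shNTC+Dox, the controls) and the knockdown group an shRNA against *EHD1* (shEHD1+Dox, the knockdown), which encodes an ATPase of endocytic recycling. The labels do not say which shRNA against *EHD1* was used, nor whether the 3 libraries of a group came from separate cultures, so the spread between them may be technical. Each shRNA was carried by its own pool of cells, and no library without Dox was used here. An effect of the knockdown therefore cannot be told apart from a difference between the pools. Total counts were 22711235 to 28203023 per shNTC+Dox library and 24150135 to 30582187 per shEHD1+Dox library. *EHD1* itself had counts of 713, 775 and 589 in the controls against 215, 175 and 290 in the knockdown (log2 fold change -1.76, SE 0.12, edgeR adjusted p = 1.35e-04). All 12 Ewing sarcoma markers checked passed the filter, and their summed level was 3026 to 3111 CPM (counts scaled to library size by TMM) in the controls and 2758 to 2875 CPM in the knockdown. Of these markers, *CD99* rose and *STEAP1*, *NPY1R* and *BCL11B* fell at an edgeR adjusted p under 0.05 (log2 fold changes over the list -0.75 to 0.33). *CD99* missed this threshold without shNTC+Dox replicate 1 or 2 or shEHD1+Dox replicate 1 or 3 (edgeR adjusted p up to 0.119). No marker was called by edgeR or DESeq2, and 7 had an unadjusted p under 0.05. Of all 16785 genes tested, 17.3% had an edgeR adjusted p under 0.05 and 2.82% were called. The share at an unadjusted p under 0.05 is larger than 17.3% and is not given here. Of the immune markers, *CD3E* had no count and *CD68* was at 4.50 ± 1.17 CPM in the controls and 3.62 ± 1.34 CPM in the knockdown. Replicate 3 of shNTC+Dox stood apart, with a chi-square per degree of freedom over genes of 25.6 and 27.1 against the other control libraries, which gave 5.56 between themselves. In the knockdown group replicate 2 stood apart, with 18.0 and 16.8 against the others, which gave 7.59 between themselves.

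*TMPRSS15* encodes enteropeptidase (enterokinase), a type II transmembrane serine protease of the duodenal brush border that cleaves trypsinogen to trypsin and so starts the activation of the pancreatic digestive enzymes. Its neighbour *MIR548XHG* is a long non-coding RNA that hosts the microRNA gene *MIR548X*. The segment is poor in genes, and its other members have unrelated roles in ubiquitin removal, cell adhesion and growth control.

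*TMPRSS15* (ENSG00000154646, chr21:18269116-18485879) and *MIR548XHG* (ENSG00000224141, chr21:18561265-18760320) are both transcribed from the minus strand, with *MIR548XHG* upstream, and are separated by 75.4 kb. The start of the main *TMPRSS15* transcript is shown because it is the RefSeq start of the gene, although counts per gene do not tell which of its annotated starts was used. The window holds 250 bases before and 50 bases after the start on the minus strand of hg38 (chr21:18403736-18404035, 31.7% GC). Capitals mark TATAAA on either strand.
TMPRSS15 main start: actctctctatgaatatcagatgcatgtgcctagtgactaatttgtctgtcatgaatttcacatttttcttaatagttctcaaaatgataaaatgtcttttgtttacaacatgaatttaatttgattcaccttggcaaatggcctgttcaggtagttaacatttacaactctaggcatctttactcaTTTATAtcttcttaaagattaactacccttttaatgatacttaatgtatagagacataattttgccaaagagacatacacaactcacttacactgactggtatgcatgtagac

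TATAAA was found once in this window. Of 35116 RefSeq promoter windows of the same length, 11.53% held it on either strand. The RefSeq windows of *USP25*, *BTG3*, *C21orf91*, *CHODL* and *NCAM2* held no TATAAA and had 56.3% to 79.0% GC. *CHODL* has a window at chr21:18244583-18244882 and another at chr21:18245625-18245924, and that of *NCAM2* is chr21:21146912-21147211. These windows lie inside the annotated spans of their genes, away from the outermost start. The tetramer GGAA, the core recognised by ETS factors, was absent from the *TMPRSS15* window and was present in 95.45% of all windows. These letter matches describe the windows and show no binding.

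Ewing sarcoma cells carry a fusion of EWSR1 with an ETS factor, most often FLI1, and this fusion is known to bind tandem GGAA repeats. Uninterrupted runs of at least 4 GGAA units were therefore searched on both strands. From the 3' end of *TMPRSS15* to the upstream end of *MIR548XHG* (491205 bases) there were 7 such runs. They lay at 4 places when runs within 1000 bases were joined, and all were intronic. The longest had 12 units each and are shown with 10 flanking bases on each side, the run in capitals, on the minus strand. The first lay 9.5 kb upstream of the main *TMPRSS15* start (chr21:18413313-18413360), and the other lay downstream of that start (chr21:18365652-18365699).
GGAA run upstream of the main start: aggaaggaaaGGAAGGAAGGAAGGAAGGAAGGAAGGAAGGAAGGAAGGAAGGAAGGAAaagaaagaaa
GGAA run downstream of the TMPRSS15 main start: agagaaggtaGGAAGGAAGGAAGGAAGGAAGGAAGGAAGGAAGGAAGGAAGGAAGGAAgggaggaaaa

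The 7 runs amount to 14.3 per Mb, beside 4.64 per Mb over the whole span of the members and 6.01 per Mb over chromosome 21. Of 72 windows of the same length tiled over chromosome 21, 5.56% held at least as many runs, 26.4% at least as many places and 31.9% a run at least as long. Counted by place or by length, windows like this interval were thus common on the chromosome. *FLI1*, whose 3' part is in the fusion transcript, had 65.2 ± 17.1 CPM in the controls and 55.9 ± 4.41 CPM in the knockdown (SD, n = 3, edgeR adjusted p = 0.409). Its control values were 57.6, 53.3 and 84.8 CPM in replicates 1 to 3, the highest in replicate 3, which stood apart. With one library left out, the log2 fold change of *FLI1* ran from -0.35 to 0.012. Binding of the fusion at these repeats was not measured, and its part in the *TMPRSS15* difference was not tested.

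**Figure D1:**
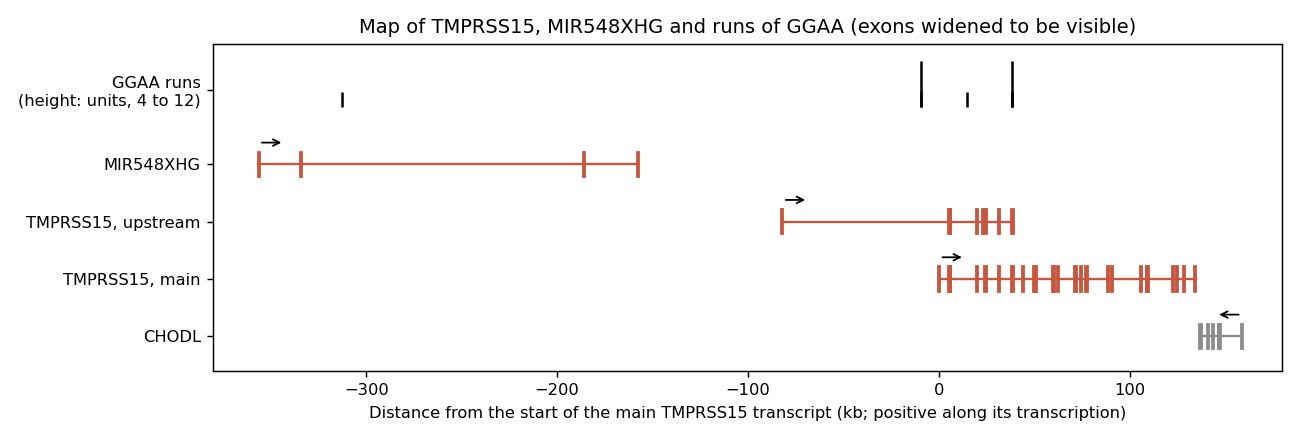
Map of the main *TMPRSS15* transcript and another that starts farther upstream, a *MIR548XHG* transcript and a *CHODL* transcript, with exons as boxes and arrows for the direction of transcription, and of runs of GGAA above. The horizontal axis is the distance from the main *TMPRSS15* start in kb, and the height of a run is its number of units, 4 to 12. A run of 12 units sits 9.5 kb upstream of the main *TMPRSS15* start.

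*TMPRSS15* had 184, 165 and 105 counts in replicates 1 to 3 of the controls, against 0, 6 and 0 in the knockdown. The groups did not overlap, and all 6 counts of the knockdown group came from its replicate 2. The level was 5.88 ± 1.15 CPM in the controls and 0.082 ± 0.14 CPM in the knockdown (SD, n = 3), a log2 fold change of -6.25 (SE 0.74). From the summed counts, scaled for library size, 1.20% of the control level was left (95% exact interval 0.439% to 2.64%, counting error only). Without shEHD1+Dox replicate 2 no count was left, which allows up to 1.05% of the control level. In a bulk sample, fewer cells that express a gene and less of its RNA per cell cannot be told apart.

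*MIR548XHG* had 78, 43 and 33 counts in the controls against 2, 0 and 1 in the knockdown. Every knockdown library was below every control library, as for *TMPRSS15*. The level was 2.00 ± 0.84 CPM against 0.034 ± 0.035 CPM, a log2 fold change of -5.64 (SE 0.63). Of the control level, 1.77% was left (95% exact interval 0.362% to 5.28%). Without shNTC+Dox replicate 3, the log2 fold changes were -6.39 for *TMPRSS15* and -5.81 for *MIR548XHG*.

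In the control libraries the counts of the neighbours stood in a ratio of *TMPRSS15* to *MIR548XHG* of 2.36 (95% exact interval 1.80 to 3.12), 3.84 (2.73 to 5.50) and 3.18 (2.13 to 4.86) in replicates 1 to 3. These intervals overlapped, and they cover counting error only. The exons of *TMPRSS15* and *MIR548XHG* overlap those of no other annotated gene, which matters because the kit gave unstranded libraries. The non-coding gene AL109763.1, which spans the upstream end of *TMPRSS15* on the same strand without sharing its exons, had 4 counts in one control library and none elsewhere.

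Among 14209 tested genes with a mean of at least 1 CPM, *MIR548XHG* was the third nearest to *TMPRSS15* by Euclidean distance between centred log2 CPM profiles over the 6 libraries (distance 2.91, median over genes 7.10), and the rank was 5 over all 16784 other tested genes. *MIR548XHG* passed the 1 CPM minimum narrowly, with a mean of 1.02 CPM that came from the controls. AC005943.1 and AL031681.3 were nearer, and *DERPC* and *BST2* followed. Of these genes, AC005943.1, AL031681.3 and *DERPC* share 1002, 4225 and 3226 exon bases with other annotated genes (summed over those genes), so their counts depend on how reads were assigned. With a prior count of 0.5 in place of 2, 4 of the 5 nearest genes were the same. Both *TMPRSS15* and *MIR548XHG* were chosen for their difference between the groups, so this closeness is a description only.

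By log2 fold change *TMPRSS15* and *MIR548XHG* ranked 7 and 8 from the lowest of the 16785 genes tested, which describes how they were chosen.

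*MIR548X* lies within *MIR548XHG*. Its mature products are printed because they are what the host transcript could carry, with the seed, bases 2 to 8, in capitals (RefSeq, hg38). They map to chr21:18686100-18686119 and chr21:18686135-18686157 on the minus strand.
hsa-miR-548x-3p: uAAAAACUgcaauuacuuuc
hsa-miR-548x-5p: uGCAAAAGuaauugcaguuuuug
The seed of hsa-miR-548x-3p is shared by 7 of 2370 mature human microRNA names and that of hsa-miR-548x-5p by 4, since *MIR548X* belongs to a large family. Small RNAs were not measured in these libraries, so the counts of the host give no level of either product.

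**Figure D2:**
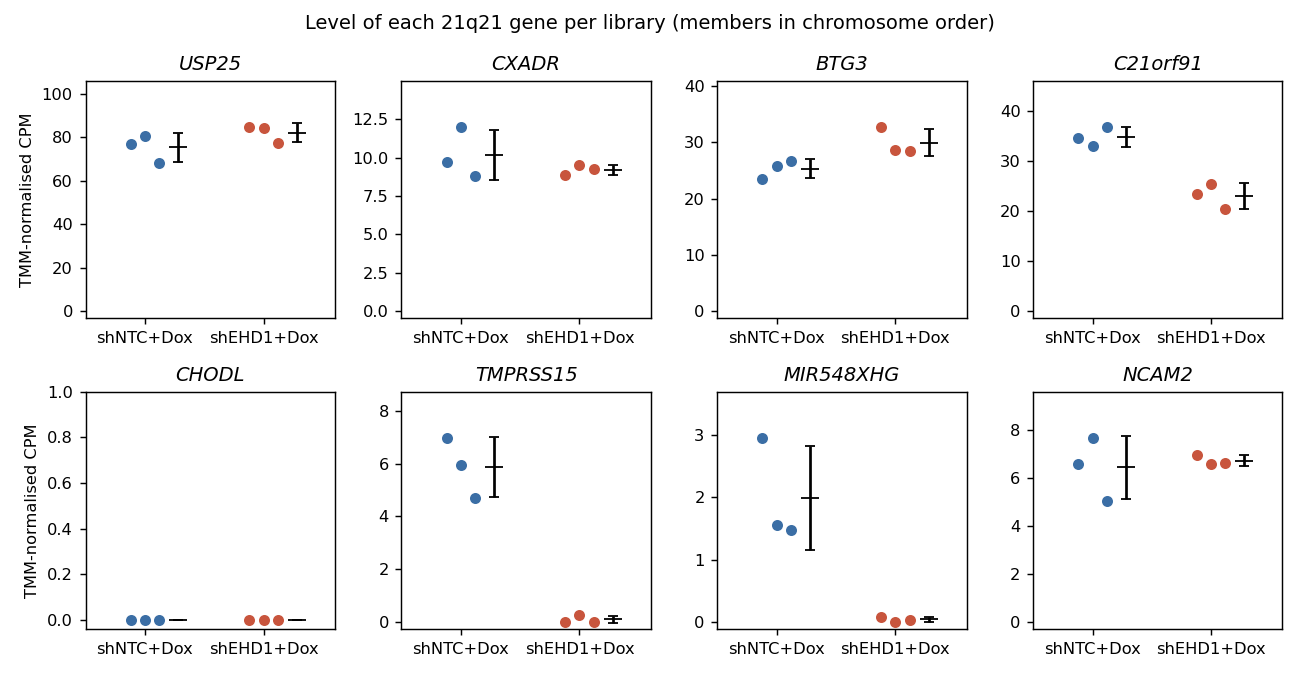
Level of the 8 genes in each library, in TMM-normalised CPM on a linear axis that includes 0 and differs between panels. Points are libraries, and bars show the mean and SD of 3 libraries. The groups are apart for *BTG3*, *C21orf91*, *TMPRSS15* and *MIR548XHG*, and *TMPRSS15* has means of 5.88 and 0.082 CPM.

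Of the 7 members tested, 2 were called at an edgeR adjusted p under 0.05 with at least a 2-fold change, both lower, beside 2.82% of all 16785 genes in either direction and 1.74% lower. At the adjusted p alone 3 of 7 members passed, beside 17.3% of all genes, and the groups did not overlap in 4 of 7, beside 39.3%. Since the members were chosen on this contrast, these counts describe them only. Their median log2 fold change was -0.14, against 0.00080 for all genes tested.

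*C21orf91* (chr21:17788974-17819386, minus strand), a protein-coding gene of poorly known function, was the only other member past the adjusted threshold. It had 909, 911 and 820 counts in the controls against 663, 619 and 628 in the knockdown. All knockdown libraries were below all control libraries, at 23.0 ± 2.52 against 34.7 ± 1.91 CPM (log2 fold change -0.60, SE 0.10), which is less than 2-fold. It shares 118 exon bases with C21orf91-OT1 and AL109761.1, which had 6 counts and 1 count in all. The gap between *C21orf91* and *TMPRSS15* is 449.7 kb.

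*BTG3* (chr21:17593653-17612945, minus strand), an antiproliferative protein of the BTG/TOB family, had 620, 712 and 597 counts in the controls against 932, 699 and 882 in the knockdown. In CPM the knockdown libraries were all above the control libraries, at 29.9 ± 2.42 against 25.3 ± 1.62 CPM, with a log2 fold change of 0.24 (SE 0.09) that did not pass the adjusted threshold. *BTG3* shares 326 exon bases with *BTG3-AS1* on the other strand.

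*USP25* (chr21:15729982-15880064, plus strand), a deubiquitinase, had 2028, 2240 and 1524 counts in the controls against 2416, 2068 and 2391 in the knockdown. Its groups overlapped in CPM, at 75.4 ± 6.49 and 82.2 ± 4.29 (log2 fold change 0.12, SE 0.08). *CXADR* (chr21:17513043-17593579, plus strand), the receptor of coxsackieviruses and adenoviruses and a junction protein, had 256, 332 and 196 counts in the controls against 252, 233 and 286 in the knockdown. These groups overlapped too, at 10.2 ± 1.65 and 9.20 ± 0.34 CPM (log2 fold change -0.14, SE 0.14).

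*NCAM2* (chr21:20998409-21543329, plus strand), a neural cell adhesion molecule, begins 2238 kb beyond *MIR548XHG*. It had 174, 213 and 113 counts in the controls against 199, 161 and 205 in the knockdown. The groups overlapped at 6.45 ± 1.32 and 6.73 ± 0.22 CPM (log2 fold change 0.058, SE 0.18), and without shNTC+Dox replicate 3 the value was -0.088.

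*CHODL* (chr21:17901263-18267373, plus strand), which encodes the membrane lectin chondrolectin, had 0 counts in all 6 libraries. A count of 0 allows up to 0.0969 to 0.134 CPM per library (3 counts). *CHODL* ends 1742 bases from the 3' end of *TMPRSS15* and faces it on the other strand.

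Scaled by exon length, the control levels ran from *BTG3* (10.996 ± 0.70 CPM per kb) and *USP25* (9.59 ± 0.83) through *C21orf91* (5.57 ± 0.31), *CXADR* (1.69 ± 0.27) and *TMPRSS15* (1.35 ± 0.26) to *NCAM2* (0.779 ± 0.16) and *MIR548XHG* (0.730 ± 0.31), with *CHODL* at 0. In this order the mean ± SD ranges overlapped between *BTG3* and *USP25*, between *CXADR* and *TMPRSS15* and between *NCAM2* and *MIR548XHG*. Thus *TMPRSS15* was a low transcript already in the controls, at percentile 31.7 of the genes tested. In shEHD1+Dox it was at 0.019 ± 0.032 CPM per kb.

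**Figure D3:**
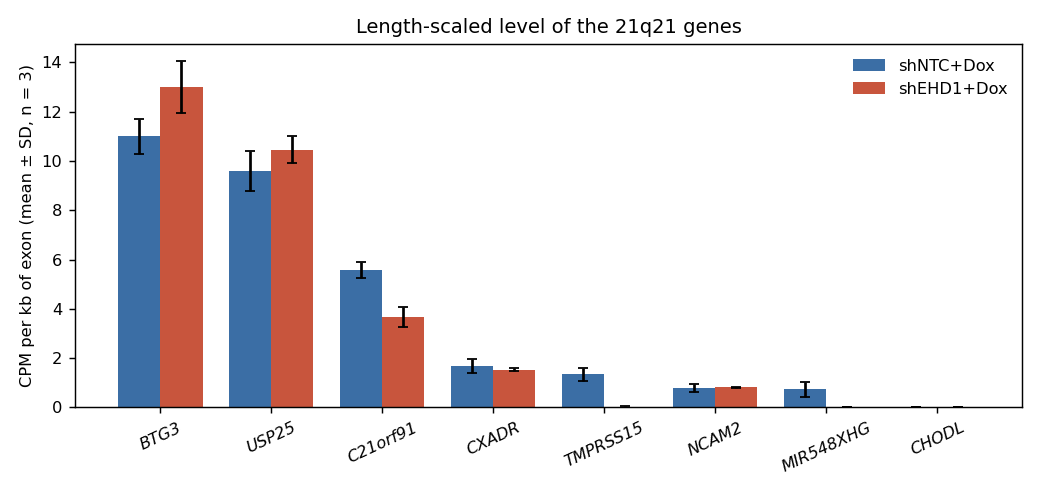
Level per kb of exon of the 8 genes in the controls and shEHD1+Dox, in order of the control level. Bars are means of 3 libraries and whiskers SD, on a linear axis from 0. *TMPRSS15* stands at 1.35 in the controls and 0.019 in the knockdown, while *CHODL* is at 0 in both.

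Of 61 other genes of the table annotated within the span, 45 had no count in any library, 16 had at least 1, and 3 passed the filter. None of the 3 was called, and none had an adjusted p under 0.05 (1 had an unadjusted p under 0.05, and DESeq2 called 0). *MIR99AHG*, the host of *MIR99A*, *MIRLET7C* and *MIR125B2*, had 130, 93 and 96 counts in the controls against 181, 137 and 172 in the knockdown (log2 fold change 0.48, SE 0.19, edgeR adjusted p = 0.114). *BTG3-AS1* had 17, 22 and 18 against 38, 29 and 27 counts (0.59, SE 0.31, edgeR adjusted p = 0.229). *PPIAP22*, a processed pseudogene of *PPIA* that lies upstream of *MIR548XHG*, had 1108, 1211 and 957 against 1126, 1182 and 1307 counts (0.01, SE 0.09, edgeR adjusted p = 0.924). Reads of a processed pseudogene may belong to its parent gene, so this value is uncertain.

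The flanks of the segment were read from lists of neighbours. Of 24 genes tested on the proximal and distal sides together, 4 rose, 1 fell and 19 did not pass the adjusted threshold. That threshold was passed by 17.3% of all genes tested, in either direction. The median log2 fold change was 0.11, beside 0.00080 for all genes tested. On the proximal side, *HSPA13*, a chaperone of the HSP70 family, rose (log2 fold change 0.42, SE 0.07, edgeR adjusted p = 0.00584) and *RBM11*, an RNA-binding protein, gave -0.22 (SE 0.08, adjusted p = 0.0771). *NRIP1*, a nuclear receptor corepressor named here after its values were seen, also rose (0.35, edgeR adjusted p = 0.0236), but missed the threshold without shNTC+Dox replicate 1 or 2 or shEHD1+Dox replicate 2 or 3 (up to 0.0771). Of the proximal genes, *TEKT4P2* and *ABCC13*, the latter without counts, are annotated as pseudogenes.

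On the distal side, *APP*, the amyloid precursor protein, rose from 680.2 ± 41.3 to 862.8 ± 22.5 CPM (log2 fold change 0.34, SE 0.07, edgeR adjusted p = 0.0133, up to 0.0528 without shEHD1+Dox replicate 1 or 3) and *CCT8*, a chaperonin subunit, gave -0.04 (adjusted p = 0.666). *GRIK1*, a glutamate receptor named here after its values were seen, rose by 0.66 (edgeR adjusted p = 0.0334), but passed only when shNTC+Dox replicate 3 was the library left out (0.00970 to 0.130 over the 6 fits). *EVA1C* was the single gene of these lists called, with 27, 19 and 17 counts against 8, 4 and 5 (log2 fold change -2.00, SE 0.43, edgeR adjusted p = 0.0154). It missed the threshold without shNTC+Dox replicate 1 (adjusted p = 0.0603) and without shEHD1+Dox replicate 3 (0.0673), and DESeq2 gave it no adjusted p. It lies 14.1 Mb from *TMPRSS15*.

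Over chromosome 21 as a whole, 207 genes were tested, 33 had an adjusted p under 0.05 and 10 were called (4.83%), with a median log2 fold change of -0.013. The 207 and the 33 include pairs of similarly named genes, such as *CBSL* and *CBS* (log2 fold changes -0.26 and -0.27). How reads were shared within such pairs is not given, so these entries may not all be separate genes. Among all genes tested, 17.3% had such an adjusted p and 2.82% were called. The 10 called genes include *TMPRSS15* and *MIR548XHG*, which were chosen for this difference. The called genes nearest to the *TMPRSS15* and *MIR548XHG* pair were AF127577.4, 3.46 Mb to the proximal side with a log2 fold change of 1.10, and *GAPDHP14*, a pseudogene 10.8 Mb to the distal side with -1.97. Both were picked out after their values were seen.

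**Figure D4:**
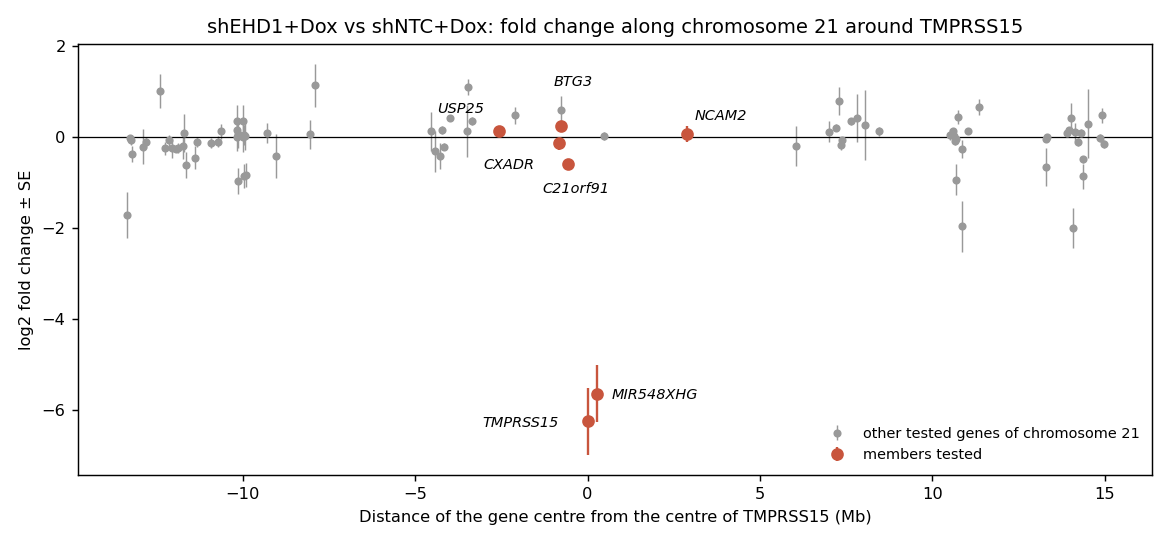
Log2 fold change (shEHD1+Dox against shNTC+Dox, with SE bars) of tested genes against the distance of the gene centre from that of *TMPRSS15* in Mb, within 15 Mb. Red points are members and grey points other genes. *TMPRSS15* at -6.25 and *MIR548XHG* at -5.64 lie below all other genes plotted.

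The protein family of *TMPRSS15* was next considered. Of 17 other type II transmembrane serine proteases, 13 had no count in any library, 2 passed the filter and none was called or passed the adjusted threshold (0 at an unadjusted p under 0.05, 0 called by DESeq2). *TMPRSS9* was at 0.665 ± 0.23 CPM in the controls and 0.450 ± 0.28 CPM in the knockdown (log2 fold change -0.57, edgeR adjusted p = 0.485). *TMPRSS5* was at 0.307 ± 0.11 and 0.317 ± 0.29 CPM (0.06, adjusted p = 0.969). The 17 genes summed to 0.716 to 1.29 CPM in the controls and 0.695 to 1.33 CPM in the knockdown. The median log2 fold change of the 2 tested was -0.25.

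The genes that act with enteropeptidase were mostly silent. Of 10 genes of the trypsinogen axis, 8 had no count, including the trypsinogens *PRSS1*, *PRSS2* and *PRSS3*. *F2RL1*, a receptor cleaved by trypsin, was tested and had 0.417 ± 0.21 CPM in the controls and 0.738 ± 0.15 CPM in the knockdown (log2 fold change 0.79, edgeR adjusted p = 0.269). *SPINK1*, a trypsin inhibitor below the filter, had 0, 5 and 8 counts in the controls (0.180 ± 0.18 CPM) and no count in the knockdown, so the groups overlapped. Of 10 markers of duodenal enterocytes, where *TMPRSS15* is normally expressed, 6 had no count, among them *FABP2*, *ALPI*, *APOA4*, *APOB* and *SI*. The intestinal factor *CDX2* was the only one tested, at 1.66 ± 0.53 and 1.36 ± 0.085 CPM (-0.28, adjusted p = 0.567), and *LCT* was at 0.155 and 0.145 CPM. *ANPEP*, an aminopeptidase below the filter, had 0, 0 and 4 counts in the controls and 19, 12 and 7 in the knockdown, without overlap in CPM (named after its values were seen). The enterocyte list summed to 1.05 to 2.60 CPM in the controls and 1.76 to 2.35 CPM in the knockdown.

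Relatives and listed partners of the other members were read in the same way, and none of them was called by edgeR or by DESeq2. Without the members themselves, 2 of 6, 6 of 8 and 4 of 7 tested genes of the BTG/TOB, adhesion and ubiquitin protease lists had an unadjusted p under 0.05. The share of all genes at an unadjusted p under 0.05 is not given here, so these counts are not read as a result. The share of all genes tested past the adjusted threshold was 17.3%, to be set only beside the counts at that threshold. In the BTG/TOB family with its CNOT7 and CNOT8 deadenylase partners, 2 of 6 tested relatives rose and 4 did not pass, with a median of 0.06. *BTG1* rose by 0.58 (edgeR adjusted p = 0.00264) and *TOB1* by 0.48 (adjusted p = 0.0107, up to 0.0578 without shEHD1+Dox replicate 1 or 3), both named after their values were seen. The most abundant, *CNOT7* and *CNOT8*, each gave 0.06. Of 8 tested genes on the adhesion list beside *NCAM2* and *CXADR*, 3 rose and 5 did not pass, with a median of 0.16. That list also holds *FGFR1* and *ST8SIA4*, which are not adhesion molecules. *NCAM1* (0.45, adjusted p = 0.0266), *F11R* (0.58, adjusted p = 0.0305) and *JAM3* (0.47, adjusted p = 0.00684) rose and were named after their values were seen, while the most abundant, *CLMP* and *FGFR1*, gave -0.14 and -0.21. *NCAM1* and *F11R* missed the threshold without shNTC+Dox replicate 1 and without each knockdown library (edgeR adjusted p up to 0.0832 and 0.104), and *JAM3* passed in all 6 such fits.

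Of 7 ubiquitin proteases and partners listed beside *USP25*, *USP28*, its closest relative, rose by 0.35 (edgeR adjusted p = 0.00975, named after its value was seen) and 6 did not pass, with a median of 0.07. *USP9X* gave 0.22 (adjusted p = 0.105) and *USP1* -0.37 (adjusted p = 0.136). Among 6 fibroblast markers, *DCN*, the proteoglycan decorin, was the one called, from 4.85 ± 0.53 to 2.40 ± 0.25 CPM (log2 fold change -1.01, SE 0.19, edgeR adjusted p = 0.00778). The other 5 did not pass, at -1.25 for *THY1* and 0.05 to 0.67 for *COL1A1*, *COL1A2*, *LUM* and *PDGFRB*, and the median of the list was 0.11. *DCN* fell short of a 2-fold change without shNTC+Dox replicate 2 (-0.92) and without shEHD1+Dox replicate 3 (-0.94). The fibroblast list summed to 86.6 to 142.9 CPM in the controls and 114.3 to 139.0 CPM in the knockdown, and its part in the result for *TMPRSS15* was not tested.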

How the data were processed

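RNA was isolated from TC71 cells and sequenced as paired-end reads from TruSeq RNA v2 libraries, which do not keep strand. The authors aligned the reads to hg38 with an Ensembl annotation, and deposited whole-number read counts per gene. The study's methods name hisat2 and StringTie, and the submitters' processing notes name STAR 2.7.3a and DESeq2. How the counts were derived is not given in the sources used here.

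The deposited counts were tested with edgeR 4.0.16 (R 4.3.3): TMM scaling, the quasi-likelihood test with robust fitting, and Benjamini-Hochberg adjustment over the 16785 of 60676 genes that had 10 counts or more in 3 or more libraries. A call needed an adjusted p below 0.05 and a change of 2-fold or more. The sign is shEHD1+Dox minus shNTC+Dox, and the SE was taken from the F statistic. Levels are CPM on TMM-scaled library sizes, and divided by the union of exons (GENCODE 44) where levels of genes are compared. Intervals are exact binomial ones at 95% and, like the floor of 3 counts, cover counting error only. The p-values measure the spread between these libraries. Counts simulated for this comparison (16785 genes, 200 with a log2 change of 1.5 up or down) gave calls for 193 of the 200 and for 0 others. Whether calls are as reliable in the real libraries, where some replicates stood apart, was not tested.

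The members and gene lists were chosen with earlier results of these data known. Named were the members, *EHD1*, the other tested genes of the span, the called genes of each list (up to 5) or otherwise its 2 most abundant, and the 5 genes nearest to *TMPRSS15* in profile. Alternatives were DESeq2 1.42.0 and its size factors, no filter, the replicate number as a block, and leaving out each library. Sequences came from hg38 and RefSeq; *CXADR* and *MIR548XHG* have no entry in the promoter table. Some marker and promoter results are not reported here.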

Additional observations from a re-analysis of the deposited data

How the results depend on the processing

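With other settings the 2 calls among the members, *TMPRSS15* and *MIR548XHG*, held in all 10 alternatives. Both genes were chosen for this difference in the same libraries, so these refits are no independent check of it. Over all genes 473 were called, 472 with DESeq2's size factors, 470 without the filter on low counts, 478 with DESeq2's Wald test and 299 to 470 with one library left out, the lowest without shEHD1+Dox replicate 3. Left-out libraries moved the log2 fold change of *TMPRSS15* between -10.3 and -5.62, the former without the one knockdown library that had counts, where the value depends on the prior count, and that of *MIR548XHG* between -6.47 and -5.18. *NCAM2* changed sign, to -0.088 without shNTC+Dox replicate 3, within a range of -0.088 to 0.20. The single call among the listed flanking 21q genes (*EVA1C*) became 0 with DESeq2's Wald test and 0 to 1 with one library left out. That among the fibroblast markers (*DCN*) became 0 without the filter and 0 to 1 with one library left out. The cause was not tested. Deviations of same-numbered libraries correlated at 0.0720, -0.0593 and -0.0448. These values show no pairing by replicate number, but with 3 libraries per group they cannot exclude it. Blocking on the replicate number left 365 genes called. Of the list genes past the adjusted threshold, *F11R* (edgeR adjusted p = 0.0502), *GRIK1* (0.0650) and *CD99* (0.0787) then missed it. Low counts limit *TMPRSS15* and *MIR548XHG* in the knockdown, where 6 and 3 counts in all set the residual level.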
